A study of Mus musculus with 14 samples.

Results

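The genes described here are 10 glycolytic genes measured in mouse epididymal fat: the hexokinases Hk1 and Hk2, the phosphofructokinase subunits Pfkl, Pfkm and Pfkp, the regulator Pfkfb3, the aldolase Aldoa, the phosphoglycerate kinase Pgk1, the pyruvate kinase Pkm and the lactate dehydrogenase subunit Ldha. Every probe set annotated to one of these genes alone was taken, which gave 19 of the 22690 probe sets on the array. 1 further probe set names Hk1 together with other genes and was not used. All 10 genes were among the 7436 of 12393 genes bright enough to be tested.

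The samples were epididymal fat, a white fat depot that lies against the epididymis, from 14 ICR mice labelled male and 3 weeks old, with 1 single-channel Affymetrix array per mouse. UC mice (n = 5) came from dams whose food was restricted by 50% in pregnancy and were suckled by dams fed ad libitum. UU mice (n = 4) had the 50% restriction in utero and also through suckling. CC mice (n = 5) had dams fed ad libitum in both periods. Litters are not given in the labels, and each mouse was treated as independent in the tests. Values are array signals, which have no absolute unit and cannot be compared between genes, and differences are on the log2(signal + 32) scale.

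Glycolysis splits glucose into pyruvate. Hexokinases trap glucose as glucose 6-phosphate, and phosphofructokinase catalyses the committed, most tightly regulated step. The enzyme is a tetramer of liver-type (Pfkl), muscle-type (Pfkm) and platelet-type (Pfkp) subunits. Pfkfb3 is a bifunctional enzyme that mainly makes fructose 2,6-bisphosphate, the strongest allosteric activator of phosphofructokinase. Aldolase, phosphoglycerate kinase and pyruvate kinase carry the carbon on to pyruvate, and the Ldha subunit of lactate dehydrogenase favours its reduction to lactate. In white fat the pathway supplies glycerol 3-phosphate and acetyl units for triglyceride, and adipocytes release part of the glucose they take up as lactate.

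The arrays differed in the tissue they carried. The signal of Gpx5, which epididymal epithelium secretes, was 409.6 to 1155.1 on the arrays of UC mice 2 and 5 and CC mice 2 and 4, against 5711 to 69624 on the other 10. Xist, the RNA of the inactive X chromosome, was at 5642.5 in UC replicate 5 and 3980.6 in CC replicate 2, against 481 to 1324 in the other 12, which goes against the label of these 2 mice as male. The same 2 arrays had Ucp1, the uncoupling protein of brown fat, at 17040.8 and 8935, against at most 642 elsewhere. The 3′ to 5′ signal ratio of control probe sets, a sign of RNA integrity, was highest in UU replicate 3 (2.11 on the log2 scale), UC replicate 1 (1.63) and UC replicate 4 (1.60), against 0.40 to 1.08 in the others. The adipocyte hormone gene Adipoq had signals of 43138 to 87601 in UC mice, 25263 to 45790 in UU mice and 46716 to 88737 in CC mice. The differences of Pfkl, Pfkp, Ldha and Pfkfb3 are also given without the arrays low in Gpx5, those with Xist signal or those of highest 3′ to 5′ ratio.

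The promoters of the 4 genes whose signals differed most between UC and UU mice are printed here because the 4 differed in the same direction and because glycolytic genes are known targets of hypoxia-inducible factor, whose core site is ACGTG or GCGTG. Each window runs from 250 bases before to 50 bases after an annotated start, 5′ to 3′ on the gene's strand, from RefSeq on GRCm38.p6, and the capitals mark ACGTG or GCGTG read on either strand. Pfkl, on the minus strand, has its start window at chr10:78009758-78010057, Pfkp, also minus, at chr13:6648722-6649021, Pfkfb3, minus, at chr2:11553880-11554179 and chr2:11502041-11502340, and Ldha, plus, at chr7:46845554-46845853 and chr7:46846832-46847131.
Pfkl: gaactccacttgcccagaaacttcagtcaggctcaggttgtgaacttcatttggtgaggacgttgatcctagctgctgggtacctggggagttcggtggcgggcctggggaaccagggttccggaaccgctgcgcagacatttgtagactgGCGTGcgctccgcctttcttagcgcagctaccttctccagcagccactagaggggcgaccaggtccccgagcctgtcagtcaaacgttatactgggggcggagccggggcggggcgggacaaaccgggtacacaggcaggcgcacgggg
Pfkp: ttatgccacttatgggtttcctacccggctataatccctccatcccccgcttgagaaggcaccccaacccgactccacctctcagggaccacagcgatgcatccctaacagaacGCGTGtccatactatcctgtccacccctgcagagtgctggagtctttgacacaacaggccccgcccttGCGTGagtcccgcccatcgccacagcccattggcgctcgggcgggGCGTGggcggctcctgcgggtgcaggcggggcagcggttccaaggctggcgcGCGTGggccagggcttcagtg
Pfkfb3, upstream start: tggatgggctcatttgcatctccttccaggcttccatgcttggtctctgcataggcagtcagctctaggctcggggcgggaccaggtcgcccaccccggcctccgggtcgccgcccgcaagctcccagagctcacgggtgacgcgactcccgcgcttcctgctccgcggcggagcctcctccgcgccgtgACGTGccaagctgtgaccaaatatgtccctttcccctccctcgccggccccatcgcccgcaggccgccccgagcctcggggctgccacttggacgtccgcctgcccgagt
Pfkfb3, downstream start: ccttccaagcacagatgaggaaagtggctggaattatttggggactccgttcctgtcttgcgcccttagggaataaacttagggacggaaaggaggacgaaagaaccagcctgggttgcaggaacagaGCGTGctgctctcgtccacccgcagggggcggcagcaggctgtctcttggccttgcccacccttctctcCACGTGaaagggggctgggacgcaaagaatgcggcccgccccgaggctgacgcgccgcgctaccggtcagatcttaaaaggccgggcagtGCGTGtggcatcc
Ldha, upstream start: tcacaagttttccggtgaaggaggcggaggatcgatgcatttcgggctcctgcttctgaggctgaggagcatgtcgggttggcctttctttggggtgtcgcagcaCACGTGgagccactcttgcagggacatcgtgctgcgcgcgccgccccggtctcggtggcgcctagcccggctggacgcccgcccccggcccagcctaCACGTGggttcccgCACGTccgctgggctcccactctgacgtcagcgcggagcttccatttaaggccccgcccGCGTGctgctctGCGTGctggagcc
Ldha, downstream start: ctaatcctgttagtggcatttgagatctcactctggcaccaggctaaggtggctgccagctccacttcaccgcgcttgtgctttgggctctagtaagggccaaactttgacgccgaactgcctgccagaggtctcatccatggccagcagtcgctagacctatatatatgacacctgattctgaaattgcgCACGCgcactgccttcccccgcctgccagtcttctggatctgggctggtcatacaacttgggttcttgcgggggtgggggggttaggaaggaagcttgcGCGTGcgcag

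ACGTG or GCGTG occurred in 15 of the 19 promoter windows of the 10 genes, against 43.8% of 32851 windows of all genes. Each of the 10 genes had it in at least 1 window. No share by gene was computed over all genes, and a gene with several windows has more chances of a match. GC content, 36.7% to 69.7% in the 19 windows, was not matched in this comparison. ACGTG alone was in 11 of the 19 (19.6% of all windows) and GCGTG alone in 8 (32.4%). CACGTG, the E-box, which contains ACGTG on both strands, was in 3 (7.15%), among them the upstream Ldha and the downstream Pfkfb3 window. Windows of one gene can overlap, and a match in letters is not a bound site. Genes with little difference between the groups also hold the motif. The window of Hk2 and 1 of the 2 windows of Hk1 contain it, as do 3 of the 4 windows of Pfkm.

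**Figure D1:**
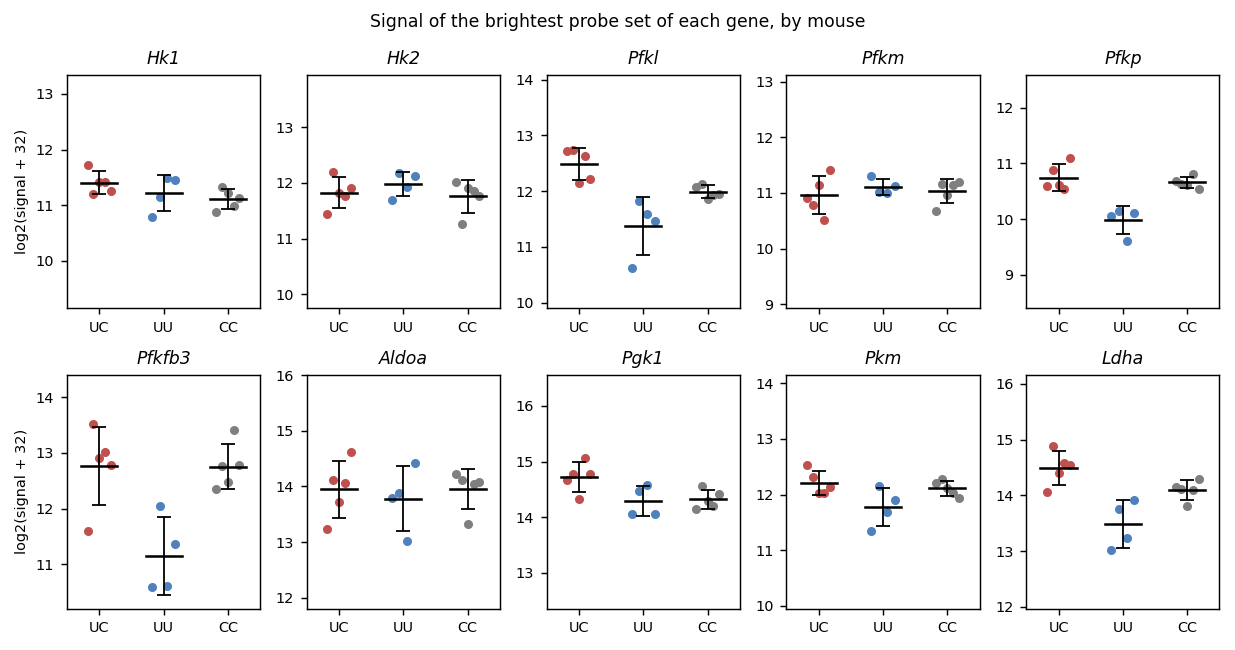
Log2(signal + 32) of the probe set used for each of the 10 genes in UC (n = 5), UU (n = 4) and CC (n = 5) mice. Points are mice, long bars group means and whiskers 1 SD, and every panel spans the same number of log2 units. The UU mice lie below all UC mice for Pfkl, Pfkp and Ldha, and the groups overlap for Hk1, Hk2, Pfkm and Aldoa.

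The comparison of UC with UU mice asks what differs between pups that share undernutrition in utero but not during suckling. Pfkl, Pfkp and Ldha were higher in UC mice, by 2.16-fold, 1.70-fold and 2.02-fold, and these 3 of the 10 genes passed the test (limma, Benjamini-Hochberg adjusted p under 0.05 over all 7436 genes). Of all genes tested, 0.807% passed in either direction, 0.686% as higher and 0.121% as lower in UC mice. Pfkfb3 had a wider difference, 3.05-fold, but also a wider spread, and missed the threshold with an adjusted p of 0.0502. At an unadjusted p under 0.05, 6 of the 10 genes were higher in UC mice and 0 lower, beside 9.17% and 8.74% of all genes. The median log2 difference of the 10 genes was 0.44, beside -0.06 over all genes tested. The genes were chosen with earlier results of these data known, so these counts and medians describe the 10 genes and do not test them as a set.

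The comparison of UU with CC mice, which adds restriction in both periods, shares the UU arrays with the first. It gave 0 calls among the 10 genes and among all genes (0% called) in limma. The 4 genes Pfkfb3, Pfkp, Ldha and Pfkl had lower means in UU mice at an unadjusted p under 0.05, and 0 of the 10 were higher, beside 7.75% of all genes lower and 8.63% higher at that level. The median log2 difference of the 10 was -0.26, beside 0.05 over all genes.

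The comparison of UC with CC mice, which asks what restriction in utero alone leaves at 3 weeks, also gave 0 calls among the 10 genes and 0% among all genes in limma. At an unadjusted p under 0.05, Pfkl and Pgk1 were higher in UC mice and 0 of the 10 were lower, beside 4.76% and 3.99% of all genes. The median log2 difference was 0.09, beside -0.003 over all genes.

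**Figure D2:**
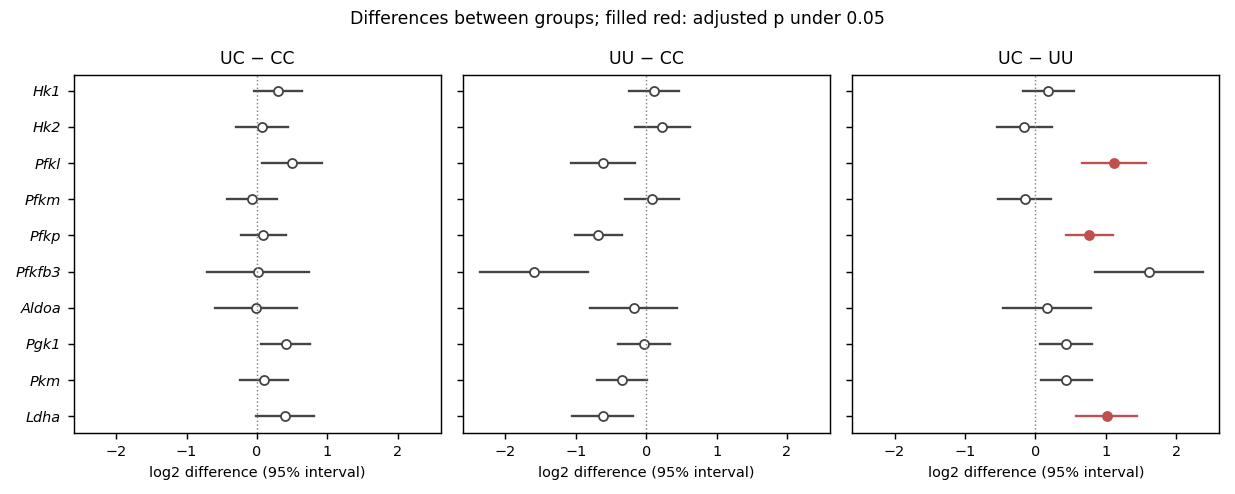
Log2 difference with its 95% confidence interval for the 10 genes in UC minus CC, UU minus CC and UC minus UU mice, from one limma fit over all 14 arrays. Filled red points have an adjusted p under 0.05. Only Pfkl, Pfkp and Ldha in UC minus UU are filled, and the Hk1, Hk2, Pfkm and Aldoa intervals include 0 in all 3 panels.

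Among the hexokinases, Hk1 is the broadly expressed form (chr10:62268855-62379920, GRCm38.p6). Its signals were 3358, 2314, 2713, 2712 and 2423 in UC mice, 1744, 2251.5, 2836 and 2766 in UU mice, and 1863, 2529.7, 2347, 1999 and 2209.6 in CC mice. The 3 groups overlapped. UC minus UU mice differed by 0.18 ± 0.17 (SE) on the log2 scale, with a 95% interval of -0.17 to 0.54, and UC minus CC mice by 0.30 ± 0.16 (limma, adjusted p = 0.613). The second, dim Hk1 probe set had signals of 78.0 to 266.0 in UC mice, 42.0 to 249.7 in UU mice and 184.9 to 495.0 in CC mice. It went the other way, at -0.79 ± 0.40 for UC minus CC mice and -0.84 ± 0.43 for UU minus CC mice (limma, adjusted p = 0.643 and 0.421). With the 2 Hk1 probe sets averaged, the UC minus CC value was -0.24 (limma, adjusted p = 0.755).

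Hk2 is the insulin-regulated hexokinase of muscle and fat (chr6:82725025-82774454). Its signals were 2737, 4658.5, 3594, 3431 and 3786 in UC mice, 3278, 4571, 3879 and 4452 in UU mice, and 4109, 2409.9, 3807, 3648 and 3429.7 in CC mice. No group stood apart. The intervals of the log2 difference were -0.55 to 0.23 for UC minus UU mice, -0.17 to 0.62 for UU minus CC mice and -0.30 to 0.44 for UC minus CC mice, and each included 0.

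In the probe set used for each gene, the 3 phosphofructokinase subunits did not share one pattern. Pfkl, the liver-type subunit (chr10:77986947-78009807, minus strand), had signals of 6732, 6762, 4516, 6311 and 4703 in UC mice, 1549.6, 3594, 3059 and 2793 in UU mice, and 4287, 4461.5, 3704, 3857 and 3937 in CC mice. All UC mice lay above all CC mice, and all CC mice above all UU mice. Pfkl was the only one of the 10 genes whose 3 groups were fully separate. Of the 10 genes, 3 had UC mice all above UU mice (Pfkl, Pfkp and Ldha) and 0 the reverse, beside 3.5% and 2.5% of all genes. UU mice lay all below CC mice for 3 of the 10 (Pfkl, Pfkp and Pfkfb3) and all above for 0, beside 3.63% and 4.71% of all genes. UC mice lay all above CC mice for Pfkl alone and all below for 0 of the 10, beside 1.01% and 0.78% of all genes.

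Mean Pfkl signals were 5805 ± 1108 in UC mice (SD, n = 5), 2749 ± 866 in UU mice (n = 4) and 4049 ± 314 in CC mice (n = 5). The log2 difference was 1.11 ± 0.21 for UC minus UU mice (95% interval 0.66 to 1.56; limma, adjusted p = 0.0343), -0.61 ± 0.21 for UU minus CC mice (adjusted p = 0.185) and 0.50 ± 0.20 for UC minus CC mice (adjusted p = 0.542). Only the first passed the test.

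The second Pfkl probe set did not show this difference. Its signals were 2711, 3248, 2855, 2667 and 3874 in UC mice, 2331, 2982, 2408.5 and 2887 in UU mice, and 2647, 3235, 2487, 2942 and 3124 in CC mice, and the groups overlapped. In a fit of every probe set its log2 difference was 0.20 ± 0.15 for UC minus UU mice, with an interval of -0.11 to 0.51 that does not reach the interval of the brighter probe set, 0.67 to 1.55. With the 2 probe sets averaged the difference was 0.66 (adjusted p = 0.0653). Where on the transcript each probe set lies was not used here.

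Pfkp, the platelet-type subunit (chr13:6579874-6649060, minus strand), had signals of 1520.0, 1858, 1532, 1452 and 2169.6 in UC mice, 1034, 1101, 749 and 1071.5 in UU mice, and 1622, 1557, 1533, 1773 and 1458 in CC mice. UU mice lay below all mice of both other groups, which overlapped each other, with 2 UC mice above and 1 below the range of the CC mice. Means were 1706 ± 303 in UC mice, 989 ± 162 in UU mice and 1589 ± 118 in CC mice (SD). Its log2 difference was 0.77 ± 0.16 for UC minus UU mice (limma, adjusted p = 0.0358) and -0.68 ± 0.16 for UU minus CC mice (adjusted p = 0.110). With the 2 Pfkp probe sets averaged, the UC minus UU value was 0.60 (adjusted p = 0.276). Between UC and CC mice it was 0.09 ± 0.15, with an interval of -0.23 to 0.40.

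The dimmer Pfkp probe set was close to the lower end of the signal range. Its signals were 278.4, 224.3, 62.1, 38.1 and 144.9 in UC mice, 95.6, 125.6, 43.4 and 87.6 in UU mice, and 284.4, 133.0, 274.3, 457.5 and 367.0 in CC mice. UU mice again lay below all CC mice, by -1.44 ± 0.46 on the log2 scale, but here UC mice overlapped UU mice and had a mean below that of CC mice, by -1.01 ± 0.43. Neither passed adjustment over all probe sets (limma, adjusted p = 0.223 and 0.594).

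Pfkm, the muscle-type subunit (chr15:98092589-98132447), had signals of 1893, 1739, 2239.7, 1436.5 and 2707 in UC mice, 2494, 2034, 2008 and 2208 in UU mice, and 1605, 2271, 1959, 2231 and 2311 in CC mice. The UU mice lay within the range of the UC mice. Its log2 difference was -0.15 ± 0.18 for UC minus UU mice, with an interval of -0.53 to 0.23. That interval lies below those of the probe sets used for Pfkl and Pfkp. It overlaps the intervals of their second probe sets, -0.11 to 0.51 for Pfkl and -0.54 to 1.39 for Pfkp.

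Pfkfb3 makes the activator of phosphofructokinase (chr2:11471430-11554071, minus strand). Its signals were 3081, 11652.5, 7677, 8215 and 7044 in UC mice, 1512, 4224, 1531 and 2610.0 in UU mice, and 5209.6, 6943, 5643, 10871 and 6988 in CC mice. UU mice lay below all CC mice and below all UC mice, except that UU replicate 2 exceeded UC replicate 1, which had the highest 3′ to 5′ ratio of its group. Means were 7534 ± 3062 in UC mice, 2469 ± 1278 in UU mice and 7131 ± 2233 in CC mice (SD).

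The Pfkfb3 log2 difference was 1.61 ± 0.36 for UC minus UU mice (95% interval 0.84 to 2.38; limma, adjusted p = 0.0502) and -1.60 ± 0.36 for UU minus CC mice (adjusted p = 0.108), the largest in size among the 10 genes in both comparisons. Between UC and CC mice it was 0.01 ± 0.34, with an interval of -0.71 to 0.73. With each array left out in turn, the UC minus UU value ran from 1.42 to 1.91 and the adjusted p from 0.0232 (without UC replicate 1) to 0.183 (without UU replicate 1), and 2 of the 14 fits called it. With the 2 Pfkfb3 probe sets averaged the value was 0.79 (adjusted p = 0.179). The dimmer Pfkfb3 probe set gave another picture, with 309 to 725 in UC mice, 472.5 to 625 in UU mice and 424 to 1149.7 in CC mice. Its UC minus UU difference was -0.03 ± 0.29, with an interval of -0.66 to 0.59, below that of the brighter probe set (0.86 to 2.36).

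**Figure D3:**
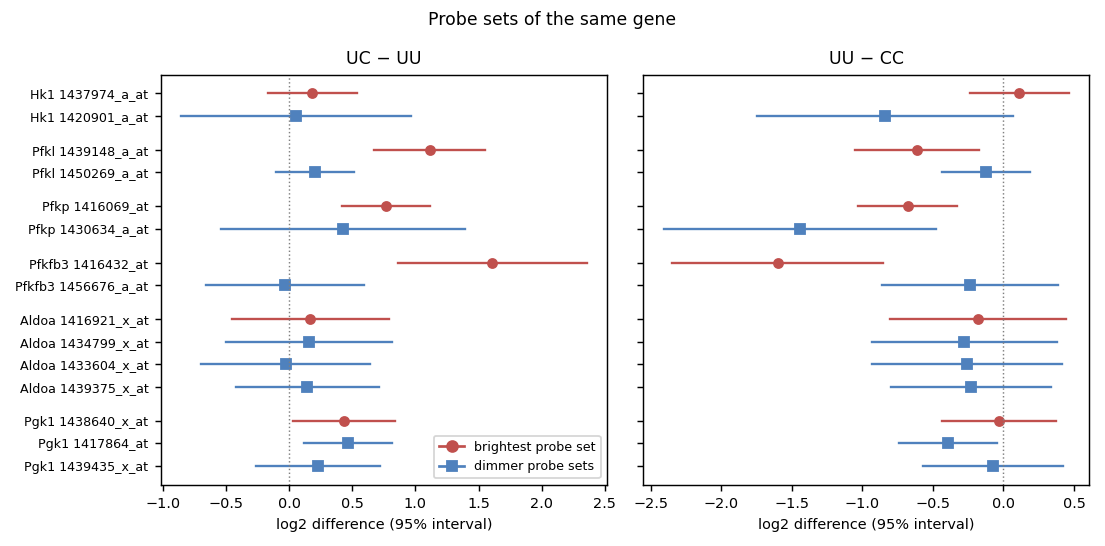
Log2 difference with its 95% confidence interval for every probe set of the 6 genes that have several, in UC minus UU mice (left) and UU minus CC mice (right), from a limma fit over all 20380 probe sets that name 1 gene. Red circles are the brightest probe set of a gene and blue squares the dimmer ones. The 2 probe sets of Pfkl and of Pfkfb3 have separate intervals in UC minus UU mice, while those of Aldoa and of Pgk1 overlap in both panels.

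In the middle of the pathway, Aldoa, the main aldolase of muscle and many other tissues (chr7:126795234-126800994), did not separate the groups. Signals ran from 9623 to 24986 in UC mice, from 8280.4 to 21940.2 in UU mice and from 10217 to 19184 in CC mice. Its 4 probe sets gave UC minus UU log2 differences between -0.03 and 0.17. All 4 carry the suffix for probes that can also match other transcripts.

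Pgk1, which makes the first ATP of the pathway (chrX:106187100-106203699), had signals of 25963, 28079, 20641, 34331 and 27988 in UC mice, 17077, 22534, 24519 and 16978 in UU mice, and 18036, 24214, 19948, 18728 and 21811 in CC mice. All UC mice but replicate 3 exceeded every mouse of the other groups. On the log2 scale the difference was 0.43 ± 0.17 for UC minus UU mice (limma, adjusted p = 0.211) and 0.40 ± 0.16 for UC minus CC mice (adjusted p = 0.542), and UU minus CC mice was at -0.03 ± 0.17. The second probe set was at 0.47 ± 0.17 for UC minus UU mice but at 0.07 ± 0.16 for UC minus CC mice and -0.39 ± 0.17 for UU minus CC mice, so the 2 probe sets place the CC mice differently. The third was at 0.23 ± 0.23 for UC minus UU mice. The brightest probe set, used for the gene, and the third carry the suffix for probes that can also match other transcripts, and the second does not.

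Pkm, the pyruvate kinase gene of most tissues other than liver and red cells (chr9:59656576-59679372), had signals of 5853, 5086, 4161, 4146 and 4479 in UC mice, 2569.5, 4502, 3265 and 3784 in UU mice, and 4703.5, 4931, 4399, 4159 and 3880.0 in CC mice. UU replicate 2 lay within the other groups and the other 3 UU mice below all of them. The Pkm log2 difference was 0.44 ± 0.17 for UC minus UU mice (limma, adjusted p = 0.201) and -0.34 ± 0.17 for UU minus CC mice (adjusted p = 0.319). Pkm has 1 probe set, which was not assigned to either of its splice forms here.

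Ldha, the subunit that favours lactate formation (chr7:46842274-46855627), had signals of 16970.5, 30244, 21588, 24490.1 and 23980.5 in UC mice, 8231, 13813, 9651 and 15498 in UU mice, and 18249.5, 17696, 14387, 17595 and 20164 in CC mice. All UC mice lay above all UU mice, and UU mice lay below CC mice except that UU replicate 4 exceeded CC replicate 3. Means were 23455 ± 4821 in UC mice, 11798 ± 3420 in UU mice and 17618 ± 2081 in CC mice (SD). The log2 difference was 1.01 ± 0.20 for UC minus UU mice (95% interval 0.58 to 1.45; limma, adjusted p = 0.0343), -0.62 ± 0.20 for UU minus CC mice (adjusted p = 0.176) and 0.40 ± 0.19 for UC minus CC mice (adjusted p = 0.580). Ldha has 1 probe set.

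The 3 calls in UC minus UU mice depended on single arrays. Leaving out 1 array kept the Pfkl difference between 0.86 and 1.26, the Pfkp difference between 0.64 and 0.82 and the Ldha difference between 0.85 and 1.16, but the adjusted p ran up to 0.104 for Pfkl, 0.115 for Pfkp and 0.129 for Ldha. Without CC replicate 1, UC replicate 2, 4 or 5, or UU replicate 1, 0 of the 10 genes were called, and without UU replicate 2, 3 or 4 only 1 was (Pfkl, Pfkl and Ldha in that order). Fewer genes are called among all 7436 in these fits too, with 0 called without UC replicate 2, without UC replicate 4 or without UU replicate 1. Without the 2 arrays with Xist signal the differences were 1.18 for Pfkl, 0.68 for Pfkp and 0.997 for Ldha, and without the 4 arrays low in epididymal markers they were 1.12, 0.60 and 0.86. Without the 3 arrays of highest 3′ to 5′ ratio they were 1.06, 0.76 and 1.05. In each of these 3 fits 0 of the 10 genes were called, with adjusted p between 0.0532 and 0.199 for the 3 genes. Pfkfb3 was at 1.60, 1.35 and 1.73 in the same 3 fits, in the order given.

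In UU minus CC mice, leaving out 1 array gave differences of -0.76 to -0.36 for Pfkl, with -0.36 without UU replicate 1, -0.73 to -0.56 for Pfkp, -0.76 to -0.46 for Ldha and -1.90 to -1.41 for Pfkfb3. Without the 2 arrays with Xist signal the values were -0.58 for Pfkl, -0.69 for Pfkp, -0.61 for Ldha and -1.60 for Pfkfb3. Without the 4 low in epididymal markers they were -0.59, -0.63, -0.61 and -1.38, and without the 3 of highest 3′ to 5′ ratio -0.69, -0.56, -0.53 and -1.42. None was called in these fits. For UC minus CC mice the Pfkl difference was 0.60 without the Xist arrays, 0.54 without the arrays low in epididymal markers and 0.37 without those of highest 3′ to 5′ ratio, and Ldha was at 0.39, 0.25 and 0.51.

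**Figure D4:**
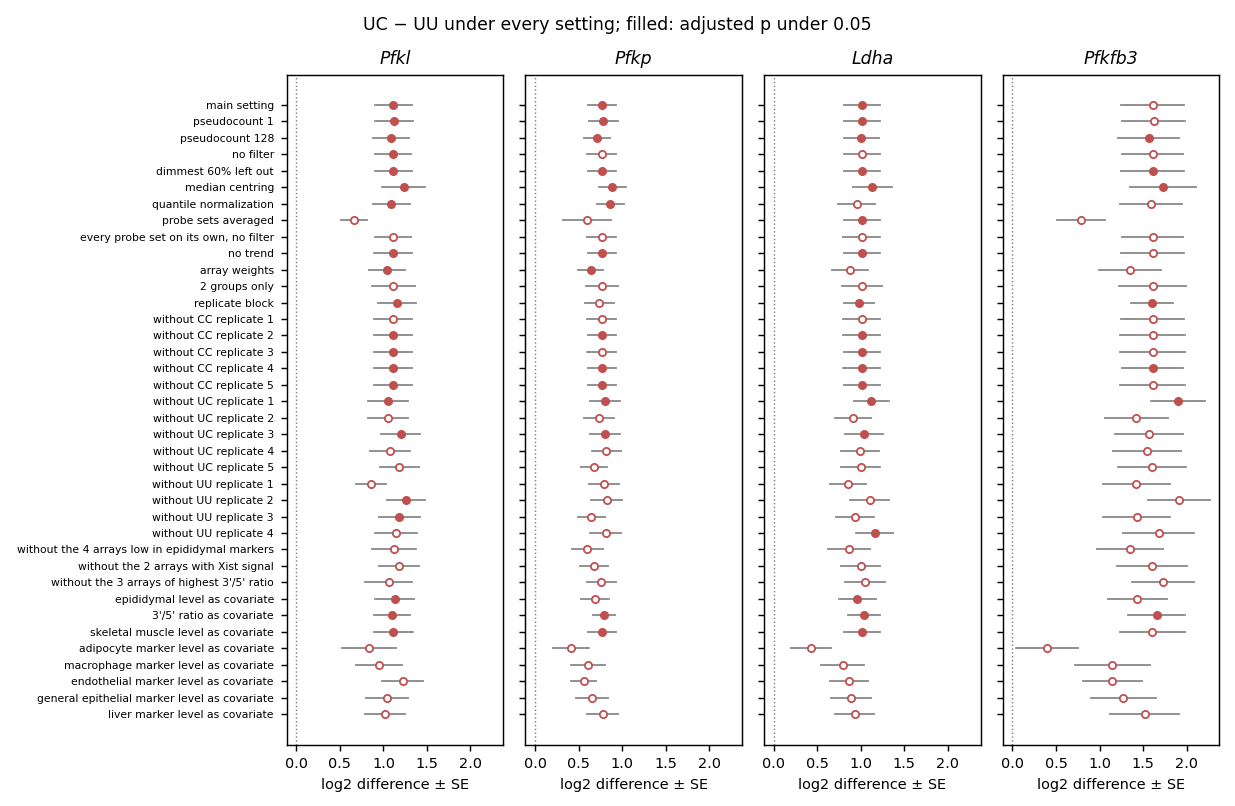
UC minus UU log2 difference ± SE of Pfkl, Pfkp, Ldha and Pfkfb3 under the setting used and 37 alternatives, with filled points where the adjusted p is under 0.05. Every point lies above 0. The Pfkp, Ldha and Pfkfb3 values are nearest to 0 with the adipocyte marker level as a covariate, and the Pfkl value with probe sets averaged.

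Adipocyte markers, of which 8 of 10 were measured, had a mean log2 signal of 14.18 ± 0.38 in UC mice, 13.17 ± 0.54 in UU mice and 14.05 ± 0.32 in CC mice (SD). Their summed signal was 204234 to 377833 in UC mice, 135019 to 233435 in UU mice and 200192 to 328710 in CC mice, and all 8 had lower means in UU than in CC mice. Pparg and Cebpa, transcription factors that drive adipocyte differentiation, were among them, and 7 of the 8 had signals of at least 1396 on every array. The exception was Lep, the hormone leptin, at 85.6 in UU replicate 1 against 2747 to 15556 on the other 13 arrays. Of the 8 adipocyte genes, 0 passed the test in any comparison (limma, adjusted p under 0.05). At an unadjusted p under 0.05, 5 were lower and 0 higher in UU than in CC mice, beside 7.75% and 8.63% of all genes. In UC minus UU mice 6 were higher and 0 lower at that level, beside 9.17% and 8.74%. In bulk tissue, fewer cells of a type and less RNA per cell cannot be told apart.

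With the adipocyte marker level as a covariate, a setting added after the data were seen, the UC minus UU difference was 0.83 for Pfkl, 0.41 for Pfkp, 0.43 for Ldha and 0.40 for Pfkfb3 (limma, adjusted p = 0.988 for each), and 0 of 7436 genes were called. The UU minus CC difference became -0.37 for Pfkl, -0.37 for Pfkp, -0.11 for Ldha and -0.55 for Pfkfb3. The covariate and the groups overlap in this design, since the UU mice have the lowest adipocyte levels, so the fit does not separate the 2.

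Markers of other cell types were read in the same way. Macrophage markers (12 of 12 measured) summed to 54872 to 155930 in UC mice, 20968 to 41366 in UU mice and 49483 to 139363 in CC mice, so UU mice lay below both other groups. General epithelial markers (12 of 12) summed to 9711 to 58819 in UC mice, 65715 to 86137 in UU mice and 8117 to 69460 in CC mice. Endothelial markers (8 of 8) summed to 10555 to 17534 in UC mice, 8203 to 12028 in UU mice and 12245 to 21141 in CC mice. Of the genes tested in these lists, 2 of 10 macrophage genes passed in UC minus UU mice (limma, adjusted p under 0.05), both higher in UC mice, and 0 of 12 general epithelial and 0 of 7 endothelial genes did in any comparison. At an unadjusted p under 0.05 in UC minus UU mice, 9 macrophage genes were higher, 6 general epithelial genes lower and 3 endothelial genes higher, beside 9.17% higher and 8.74% lower over all genes. With the macrophage level as a covariate, the UC minus UU differences were 0.95 for Pfkl, 0.60 for Pfkp, 0.79 for Ldha and 1.15 for Pfkfb3. None of these was called (limma, adjusted p between 0.424 and 0.491). With the general epithelial level they were 1.04, 0.65, 0.88 and 1.27 (limma, adjusted p between 0.195 and 0.268). The UU mice have the lowest macrophage levels, so the macrophage fit does not separate that level from the groups.

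Beyond the 10 genes, a list of 31 further genes of glucose uptake, glycolysis, lactate transport and gluconeogenesis was read. Of these, 21 had a probe set naming 1 gene and 13 were bright enough to be tested. None of the 13 passed the test in any comparison (limma, adjusted p under 0.05). At an unadjusted p under 0.05, 2 were higher and 3 lower in UC than in UU mice, 2 higher and 4 lower in UU than in CC mice, and only Eno3, lower in UC mice, between UC and CC mice. Over all genes the higher and lower shares were 9.17% and 8.74% for UC minus UU mice, 8.63% and 7.75% for UU minus CC mice, and 4.76% and 3.99% for UC minus CC mice. The median UC minus UU log2 difference of the 13 was -0.06, beside -0.06 over all genes.

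Of the glucose transporters, 3 were tested and none passed. Slc2a1, the basal glucose transporter, had signals of 1718, 812, 1469, 1476 and 689 in UC mice, 2037, 1710.1, 2452 and 1952 in UU mice, and 1428, 1050.2, 1339, 925 and 1301.5 in CC mice. UU mice exceeded all CC mice and all UC mice, except that UC replicate 1 exceeded UU replicate 2. The 4 lowest signals, 689 to 1050.2, were on the 4 arrays low in epididymal markers, UC replicates 2 and 5 and CC replicates 2 and 4. None of these was a UU mouse, and the part of tissue content in the Slc2a1 differences was not tested. The log2 difference was -0.78 ± 0.25 for UC minus UU mice (limma, adjusted p = 0.133) and 0.74 ± 0.25 for UU minus CC mice (adjusted p = 0.176), opposite in sign to Pfkl and Ldha. Slc2a4, the insulin-responsive transporter of fat and muscle, averaged 2445 ± 860 in UC mice, 2399.6 ± 627 in UU mice and 2483 ± 462 in CC mice (SD). Slc2a3, a high-affinity transporter, averaged 2003 ± 1456 in UC mice, 1804 ± 361 in UU mice and 1680 ± 808 in CC mice, and its groups overlapped.

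Slc16a1, a monocarboxylate transporter that carries lactate, had signals of 1579, 4077.5, 2405, 2789 and 4465 in UC mice, 1928, 2274, 1449 and 2153 in UU mice, and 3044, 4986, 2567, 4329.9 and 3873 in CC mice. UU mice lay below all CC mice, by -0.92 ± 0.28 on the log2 scale (limma, adjusted p = 0.158), and overlapped UC mice. Pgam1, the phosphoglycerate mutase between Pgk1 and enolase, averaged 5382 ± 1093 in UC mice, 3796 ± 884 in UU mice and 5107 ± 187 in CC mice, with log2 differences of 0.50 ± 0.18 for UC minus UU mice and -0.45 ± 0.18 for UU minus CC mice. Neither passed the test.

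Tpi1, triose phosphate isomerase, averaged 8874 ± 1552 in UC mice, 7143 ± 1982 in UU mice and 9386 ± 1161 in CC mice, a UU minus CC difference of -0.43 ± 0.20. Fbp1, the gluconeogenic fructose bisphosphatase that opposes phosphofructokinase, was also lower in mean in UU mice. It averaged 1472 ± 361 in UC mice, 832 ± 118 in UU mice and 1251 ± 423 in CC mice, and all UC mice lay above all UU mice. Its log2 difference was 0.78 ± 0.24 for UC minus UU mice (limma, adjusted p = 0.127).

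The remaining genes of the list at an unadjusted p under 0.05 were Pklr, Aldoc and Eno3. Pklr, the pyruvate kinase of liver and red cells, averaged 818 ± 162 in UC mice, 926 ± 76.3 in UU mice and 659 ± 93.2 in CC mice, a UU minus CC difference of 0.48 ± 0.18. Liver markers (9 of 10 measured) moved between the groups too, with sums of 3452 to 79086 in UC mice, 3770.1 to 5365 in UU mice and 1664 to 3319 in CC mice. The 79086 was UC replicate 2 alone, with the other UC mice at 13214 or less. Pklr was at 667.9 in that mouse, the lowest of the UC mice. The highest UC value, 1091.9, was in UC replicate 1, with a liver sum of 12470. The part of liver RNA in the Pklr values was not tested. Aldoc, the brain-type aldolase, averaged 803 ± 429 in UC mice, 1692 ± 917 in UU mice and 879 ± 450 in CC mice, with UU replicate 1 at 3045. The 4 lowest Aldoc signals, 318 to 525, were also on the 4 arrays low in epididymal markers. Eno3, the muscle enolase, averaged 483 ± 133 in UC mice, 731 ± 155 in UU mice and 830 ± 317 in CC mice. Its 2 highest values, 1297 and 1014.5, were in CC replicates 5 and 2, the same 2 arrays in which the skeletal muscle actin Acta1 reached 9065 and 7453, against at most 873 elsewhere.

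A list of 22 genes of the hypoxia response was read because Pfkfb3, Pgk1, Ldha and other glycolytic genes are known targets of hypoxia-inducible factor. Of 20 measured genes 17 were tested and none passed in any comparison (limma, adjusted p under 0.05). At an unadjusted p under 0.05, 1 was higher and 2 lower in UC than in UU mice, 1 higher and 0 lower in UU than in CC mice, and only Mxi1, lower in UC mice, between UC and CC mice. The same all-gene shares apply, at 9.17% higher and 8.74% lower for UC minus UU mice. The median UC minus UU difference was -0.08, beside -0.06 over all genes.

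Mxi1, a repressor of the Myc network, averaged 1541 ± 346 in UC mice, 2545 ± 528 in UU mice and 1984 ± 219.95 in CC mice, a UC minus UU difference of -0.71 ± 0.18 (limma, adjusted p = 0.0783) and a UC minus CC difference of -0.38 ± 0.17. Kdm3a, a histone demethylase, averaged 1552 ± 419 in UC mice, 2183 ± 498 in UU mice and 1537 ± 214 in CC mice, with all UU mice above all CC mice. Higd1a, a mitochondrial protein, averaged 4910.2 ± 812 in UC mice, 3320.5 ± 888 in UU mice and 3843 ± 593 in CC mice. The hypoxia-inducible factor genes themselves overlapped between groups, with Hif1a at 5772 ± 1160 in UC mice, 5815 ± 1715 in UU mice and 5117 ± 360.04 in CC mice. Vegfa, a secreted target, averaged 2083 ± 313 in UC mice, 2433 ± 1176 in UU mice and 2775 ± 909 in CC mice.

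For 6 of the genes, the tested genes whose log2 signals ran most alike over the 14 arrays were read, with Pearson's r as a description. All points share the groups and the cell makeup of the samples. Pfkfb3 ran closest to Pparg (r = 0.926), Mrap (0.924), an accessory protein of melanocortin receptors, and Cebpa (0.919). Ldha ran closest to Mrap (0.935), Dgat2 (0.925), an enzyme of triglyceride synthesis, and Nnmt (0.924), nicotinamide N-methyltransferase. Pparg and Cebpa belong to the adipocyte markers above.

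The phosphofructokinase subunits had other partners. Pfkl ran closest to the beta-tubulin Tubb6 (r = 0.944), Tmem167 (0.942) and Prps1 (0.927), a phosphoribosyl pyrophosphate synthetase. Pfkp ran closest to the G protein-coupled receptor kinase Grk5 (0.923), the galectin Lgals9 (0.921) and the annexin Anxa2 (0.917). Pfkm ran closest to Thoc3 (0.873), B3gnt2 (0.873) and Rfxank (0.857). Hk2 had no partner as close, with Usp5 at 0.754, Tmem192 at 0.736 and Sh2b2 at 0.721. For these 6 genes, none of the 3 closest partners was among the 10 glycolytic genes.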

How the data were processed

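RNA of epididymal fat from 14 mice was hybridised to single-channel arrays. The deposited table holds linear signal intensities; per the submitters' processing notes the authors used MAS5 in GCOS 1.3. With 2% trimmed at both ends, array means ran from 1500.45 to 1500.57, and the smallest signal was 0.2. No detection calls were used.

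Probe sets were named from the platform annotation (20380 name 1 gene, 691 several, 1555 none, and 64 are controls), and symbols were updated through RefSeq for 20351. For each gene the probe set of highest mean log2(signal + 32) over all arrays was used, and the dimmest 40% of genes were dropped, so that 7436 were tested. One fit over the 14 arrays was made in limma 3.58.1 (R 4.3.3) with a variance trend and 3 two-sided contrasts. p-values were adjusted by Benjamini-Hochberg over all genes, with calls under 0.05. A second fit took all 20380 probe sets with no filter. The arrays' number limits the precision.

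The genes and lists were chosen with earlier results of these data known. Further genes were named if they belonged to the glycolysis or hypoxia list with an unadjusted p under 0.05 (up to 6 per comparison) or were among the 3 most alike in pattern. Slc2a3, Slc2a4, Hif1a, Vegfa, Gpx5, Xist, Ucp1, Acta1, Adipoq and Lep were named outside this rule. For UC minus UU on simulated arrays of 7436 genes, the fit recovered 70.2% of changes of 1 log2 unit. It recovered 95.4% of changes of 2 units, and 4.46% of its calls were false. Both the recovered share and the false share on the real arrays, which differed in the tissue they carried, were not tested.

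Alternatives covered the pseudocount, filter, normalization, probe set rule, variance model, array weights, groups fitted, a replicate block, each array left out, sets of arrays left out, and the epididymal level, muscle level and 3′ to 5′ ratio as covariates. Adipocyte, macrophage, endothelial, general epithelial and liver levels as covariates were added after seeing the data.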

Additional observations from a re-analysis of the deposited data

Results flagged for a closer look

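Of 57 groups of 4 or 5 mice, 1 for each probe set and group, 2 held a mouse far from the others of its group by Dixon's criterion at the 95% level, which chance alone meets in about 1 group in 20. Pfkp in UU replicate 3 had a signal of 749.2, against 1034.4 to 1101.1 in the other 3 UU mice. Without that mouse the UC minus UU difference of Pfkp was 0.64 on the log2 scale and its adjusted p 0.0845 (limma). Aldoa in CC replicate 3 had a signal of 10217.1 in its brightest probe set, against 16894.1 to 19184.3 in the other 4 CC mice.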

How the results depend on the processing

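In UC minus UU mice, the sign of the Pfkl, Pfkp, Ldha and Pfkfb3 differences was the same under all 37 alternatives, but the calls were not. The count of the 10 genes called was 3 in the setting reported, 1 with no filter (Pfkl), 1 with probe sets averaged (Ldha), and 0 with every probe set fitted on its own or with 2 groups only. It was 0 to 4 with each array left out, and 0 without the 4 arrays low in epididymal markers, without the 2 arrays with Xist signal, or without the 3 of highest 3′ to 5′ ratio. It was also 0 with the adipocyte, macrophage, endothelial, general epithelial or liver marker level as a covariate, settings chosen after seeing the data. Median centring, the 3′ to 5′ ratio as a covariate, the larger pseudocount and leaving out the dimmest 60% each gave 4. Over all genes the calls were 51 higher and 9 lower in the setting reported, 23 and 2 with no filter, 93 and 7 with median centring, 79 and 15 with the replicate block, 92 and 23 with the 3′ to 5′ ratio as a covariate, 7 and 2 with 2 groups only, 16 and 0 with every probe set on its own, and 151 and 48 at an adjusted p under 0.1. They were 0 to 91 and 0 to 19 with each array left out, 1 and 0 without the arrays low in epididymal markers, 3 and 0 without those with Xist signal, 1 and 1 without those of highest 3′ to 5′ ratio, and 0 with any of the 5 covariates added later. With median centring, 1006 genes were higher and 306 lower at an unadjusted p under 0.05, against 682 and 650 without it. In UU minus CC mice the count was 0 in all settings but the replicate block, where it was 1 (Pfkfb3, -1.60, limma adjusted p = 0.0431). In UC minus CC mice it was 0 throughout. Over all genes, UU minus CC gave at most 6 higher and 8 lower calls under any alternative (with the epididymal level as a covariate), and UC minus CC gave 1 (with the macrophage level) and otherwise 0. Correlations of the deviations of mice with the same replicate number ran from -0.32 to 0.49 and were above 0.1 in only some pairs. Between CC and UC mice they were 0.42, 0.48 and 0.49 for replicates 1, 2 and 3, and -0.11 and -0.32 for replicates 4 and 5. Mice of unlike number were not compared, so these values do not settle whether the number pairs mice. The setting reported does not use it. With the replicate block the UC minus UU count was 3 (Pfkl, Ldha and Pfkfb3). The cause of these changes was not tested.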
